A study of Mus musculus with 2 samples.

Results

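The data described here are the FoxO3 peaks at Fbxo32 and Trim63, the genes of the muscle ubiquitin ligases atrogin-1 (MAFbx) and MuRF1. A peak was counted when its summit lay in the gene or within 50 kb of it on the mouse build mm9. The gene intervals were taken as chromosome 15 from 58007400 to 58046500 for Fbxo32, which is transcribed from the minus strand, and chromosome 4 from 133871000 to 133885500 for Trim63, which is transcribed from the plus strand. These bounds are rounded, so distances carry an error of about 100 bp. The rule found 15 peaks of 45958 in both lists together. Of these, 9 lay at Fbxo32 and 6 at Trim63, all in the myotube list, and 0 came from the myoblast list.

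FoxO3 occupancy was measured by chromatin immunoprecipitation and sequencing in C2C12, an established line of mouse myoblasts whose cells fuse to multinucleate myotubes in low-serum medium. The myoblast sample was taken at hour -24 relative to differentiation medium, which is DMEM with horse serum in place of fetal serum, and the myotube sample at hour 72. Both were unmodified C2C12 cells, and the same anti-Foxo3 antibody was used for both. Each group was 1 library, so no value below has a replicate error and no test between the groups was made. The source name of both samples is C2C12 myoblasts, and the developmental stage label separates them. The labels name no fasting, glucocorticoid or other wasting stimulus, and no RNA was measured in this series.

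Fbxo32 encodes an F-box protein, the substrate receptor of an SCF ubiquitin ligase complex. Trim63 encodes a RING-finger ubiquitin ligase of the sarcomere, which marks myofibrillar proteins for the proteasome. Both transcripts rise in many forms of muscle wasting, and FoxO factors are known activators of both genes. Insulin and growth factor signalling through Akt keeps FoxO3 phosphorylated and out of the nucleus. When that signal falls, FoxO3 enters the nucleus and binds a short consensus, GTAAACA, at its target genes.

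The 250 bases before the Trim63 start are shown because the strongest member peak lies at this promoter. The sequence is that of RefSeq on GRCm38.p6, chromosome 4 from 134314870 to 134315119, plus strand, written 5′ to 3′. Capitals mark, in order, a match to the glucocorticoid response element (half-sites GAACA and TGTTC with 3 bases between them), the FoxO consensus read on the other strand (TGTTTAC), the E-box CAGCTG and the TATA box TATAAA.

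Trim63 promoter: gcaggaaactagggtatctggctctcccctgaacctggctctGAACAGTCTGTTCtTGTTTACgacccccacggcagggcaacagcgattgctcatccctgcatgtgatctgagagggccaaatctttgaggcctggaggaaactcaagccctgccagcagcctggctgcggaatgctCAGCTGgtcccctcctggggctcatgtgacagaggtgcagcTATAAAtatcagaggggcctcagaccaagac

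In this window the FoxO consensus GTAAACA, searched on both strands, matched 1 time, from base 194 to base 188 before the start. The same letters occurred in the 250 bases before the start of 1040 of the 32851 promoters in the RefSeq table (3.17%). The shorter FoxO core TAAACA, which lies inside that match, was present in 3952 of the 32851. The sequence CAGCTG, the E-box form favoured by MyoD and the other myogenic bHLH factors, matched 1 time, from base 72 to base 67, and was present in 13.0% of promoters. The general E-box CANNTG, which includes CAGCTG, matched 3 times here and was present in 66.2% of promoters.

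The glucocorticoid element and the TATA box were searched, on both strands, after the sequence had been seen. The former matched from base 208 to base 196, with 1 base between it and the FoxO match. It was present in 13 of the 32851 promoters (0.0396%), and Trim63 was the 1 promoter that held both it and the FoxO consensus. The TATA box matched from base 31 to base 26 and was present in 12.4% of promoters. The letters alone do not show that a factor binds there. Of the 2 genes, 1 had an entry in the promoter table, and Fbxo32 is the gene not matched.

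At Trim63, FoxO3 occupancy in myotubes was centred on the promoter. The peak at the gene start lay on chromosome 4 from 133870761 to 133871302, with its summit 147 bp upstream of the start. Its fold enrichment, the reads at the summit over the background of the authors' caller, was 58.82, with a −log10 q-value of 117.40. The deposited fold and p-value correspond to a pileup of 89 reads over a background of 1.51 reads. By fold it ranked 75 among the 45457 myotube peaks, and 0.169% of the list had a fold at least as high. On chromosome 4, 4 of the 2938 myotube peaks reached that fold, this one included.

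The Trim63 promoter peak was also among the widest of the list. It spanned 542 bp, and 1.88% of myotube peaks were at least as wide. It reached from 239 bp upstream to 302 bp downstream of the rounded gene start. The summit lay toward the upstream side, 92 bp from that edge and 449 bp from the downstream edge. The printed promoter sequence is on another build than the peaks, so the summit and the FoxO match cannot be compared base by base. The summit and the match both lie within 250 bp upstream of the start, as each build gives it.

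The members next highest in fold also lay upstream of Trim63. A peak 7.60 kb upstream (chromosome 4, 133863307 to 133863687) had a fold of 27.74 from 42 reads over 1.51. A peak 14.64 kb upstream (133856231 to 133856484) had a fold of 21.27 from 33 reads over 1.55. Of these 3 peaks the one nearest to the gene start had the highest fold and the one farthest from it the lowest, with gaps of 7.03 and 7.46 kb between the summits. In the myotube list 2.27% of peaks had a fold at least as high as the peak 7.60 kb upstream, and 5.01% as high as the peak 14.64 kb upstream. By pileup and −log10 q-value the peak near the end of Fbxo32 stood above both, with 64 reads and 55.96.

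Within and beyond the Trim63 gene the peaks were weaker. The peak 4.82 kb into the gene (133875710 to 133875958) had a fold of 5.80 from 15 reads, and 89.4% of the list was at least as high. The peak 12.26 kb into the gene (133883172 to 133883380), 2.24 kb before the gene end, had a fold of 12.25 from 19 reads. The peak 40.99 kb downstream of the start (133911907 to 133912318) lay 26.49 kb past the gene end, with a fold of 14.83 from 23 reads and a width of 412 bp. Exon positions on mm9 were not used here, so the peaks inside the gene are not placed in exons or introns.

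**Figure D1:**
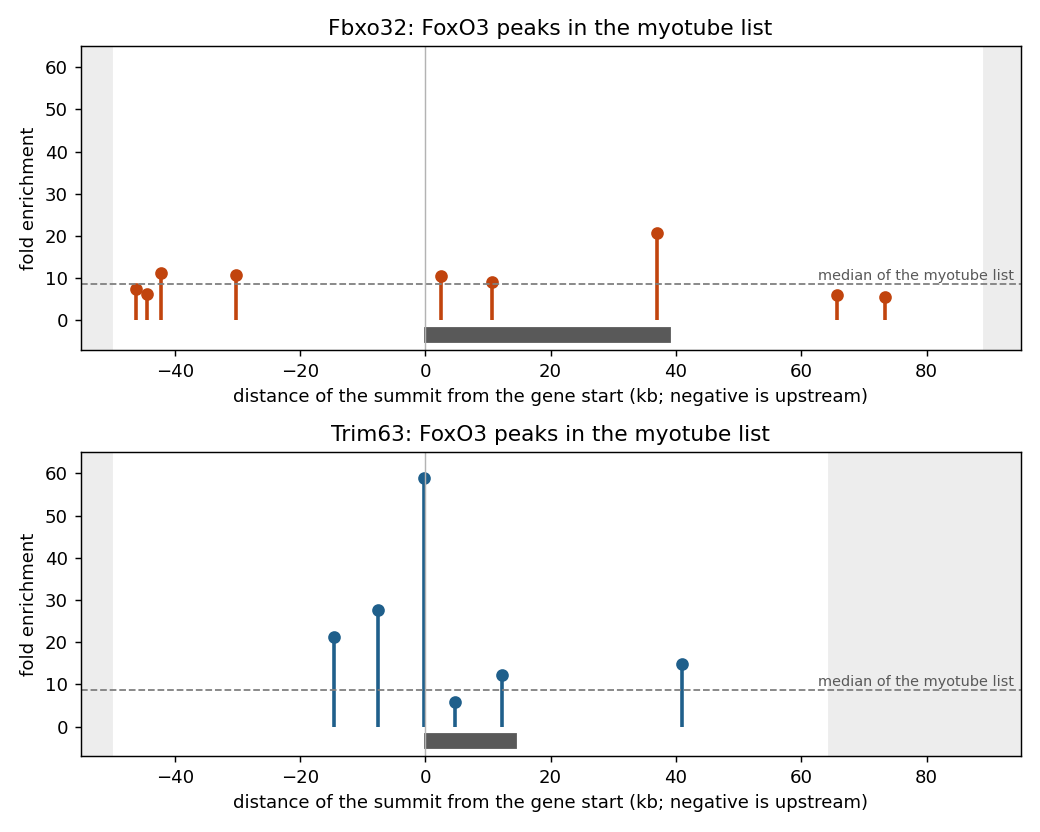
Fold enrichment of each member peak (vertical axis) against the distance of its summit from the gene start in kb (horizontal axis, negative upstream), for Fbxo32 (top) and Trim63 (bottom) in the myotube list. Grey bars mark the genes, shaded edges lie outside the 50 kb windows and the dashed line is the list median of 8.59; the Trim63 promoter peak stands at 58.82 and no Fbxo32 member lies at the gene start.

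At Fbxo32 no summit was listed within 1 kb of the gene start. The nearest lay 2.52 kb downstream of the start, inside the gene (chromosome 15, 58043867 to 58044121). It had a fold of 10.57, a −log10 q-value of 20.06 and 34 reads over a background of 3.22. In the myotube list 32.1% of peaks had a fold at least as high. The summit was thus in the gene near its 5′ end, outside the 1 kb taken as the promoter.

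The strongest Fbxo32 member lay at the other end of the gene. This peak (chromosome 15, 58009375 to 58009627) had a fold of 20.70, a −log10 q-value of 55.96 and 64 reads over 3.09. Its summit was 36.98 kb from the start and 2.12 kb before the gene end. It ranked 2453 by fold in the list, where 5.40% of peaks were at least as high. In the RefSeq gene table (GRCm38.p6) the long noncoding RNA gene Gm36112 overlaps Fbxo32. Whether it also overlaps this peak was not examined on mm9. The third peak in the gene, 10.61 kb from the start (58035678 to 58036167), had a fold of 9.02 from 33 reads. It was 490 bp wide, and 2.90% of the list was at least as wide.

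Outside Fbxo32, 4 peaks lay upstream and 2 downstream. The 3 farthest upstream formed a group between 42.22 and 46.11 kb from the start, with folds of 11.15 (45 reads), 6.33 (22 reads) and 7.37 (33 reads) in order of distance. A single peak 30.25 kb upstream (58076643 to 58076817) had a fold of 10.64 from 33 reads. The next gene upstream in the RefSeq table is Gm36193, a long noncoding RNA, followed by Klhl38, so the upstream group cannot be assigned to Fbxo32. The downstream peaks, 65.74 and 73.45 kb from the start, had the lowest pileup of the Fbxo32 members, with 15 reads each and folds of 6.13 and 5.48. On that side the next gene in the RefSeq table is the protein-coding gene Wdyhv1, so the downstream peaks cannot be assigned to Fbxo32 either.

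At Trim63 the neighbours in the same table are Pdik1l and then Grrp1 upstream, and Slc30a2 and then Extl1 downstream. Pdik1l encodes a protein kinase and Slc30a2 a zinc transporter. Which of the flanking peaks lie nearer to those genes was not examined on mm9.

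By position class the genes differed in where the reads stood. Trim63 had 1 summit within 1 kb of its start, 2 in the rest of the gene, 2 upstream and 1 downstream. Fbxo32 had 0 within 1 kb of its start, 3 in the rest of the gene, 4 upstream and 2 downstream. The summed pileup of the upstream members was 133 reads over 4 peaks at Fbxo32 and 75 reads over 2 peaks at Trim63. In the rest of the gene it was 131 reads at Fbxo32 and 34 at Trim63, and downstream it was 30 and 23. At the start itself it was 89 reads at Trim63 and 0 at Fbxo32. The class sizes are small, and no test was made on them.

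By fold, most Trim63 members stood in the upper part of the myotube list and the median Fbxo32 member near its middle, while by pileup both medians lay above the upper quartile of the list, 25 reads. The median fold was 18.05 at Trim63 (5.80 to 58.82) and 9.02 at Fbxo32 (5.48 to 20.70), against 8.59 in the list (quartiles 6.92 and 11.6). A fold of at least 20 was reached by 3 of 6 Trim63 members and 1 of 9 Fbxo32 members, where 5.88% of all myotube peaks reached it. That threshold was set with the member values known, so the counts at it are a description. A fold of at least 10 was reached by 5 of 6 and 4 of 9, against 35.4% of all peaks. A −log10 q-value of at least 10 was reached by 5 of 6 Trim63 and 6 of 9 Fbxo32 members, against 41.4% of all peaks. At 5 or more it was 14 of the 15 members, against 82.6% of all peaks.

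**Figure D2:**
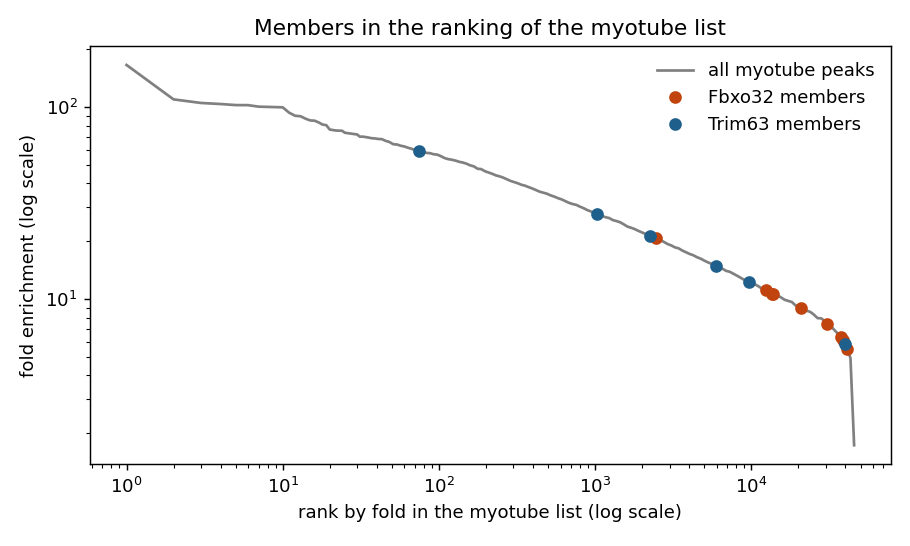
Fold enrichment (vertical axis, log scale) by rank in the myotube list (horizontal axis, log scale); the grey line is all 45457 peaks and points are the members. Trim63 members hold ranks from 75 to 39515, and the highest Fbxo32 member is at rank 2453.

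The loci differed in background more than in pileup. Recovered pileups overlapped widely, with a median of 33 reads at Fbxo32 (15 to 64) and 28 at Trim63 (15 to 89), against 18 in the list. Backgrounds overlapped at 1 Trim63 member, the peak 4.82 kb into the gene. They ran from 2.45 to 4.48 reads at Fbxo32 (median 3.22), and from 1.51 to 2.59 at Trim63 (median 1.55). The most frequent background in the myotube list, its floor, was 1.51 reads, and 2 Trim63 members but 0 Fbxo32 members stood at it. The Trim63 promoter peak had both the highest pileup and a floor background.

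The higher background at Fbxo32 was shared by its chromosome. The median background was 3.10 reads over the 1970 myotube peaks of chromosome 15, the highest of the 20 chromosomes, against 1.89 on chromosome 4 and 2.07 in the list. Of the chromosome 15 peaks, 0.66% stood at the floor, against 24.7% on chromosome 4. The other 74 myotube peaks within 1 Mb of the Fbxo32 start had a median of 3.28 reads, and the 90 within 1 Mb of the Trim63 start had 2.08. In the myoblast list chromosome 15 also had a high median background, 0.57 reads over 23 peaks against 0.44 in the list. The part of chromosome-wide background in the Fbxo32 folds was not tested.

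Set against their own chromosome, Fbxo32 members ranked higher by fold. The peak near the gene end was among the 55 of 1970 chromosome 15 peaks (2.79%) with a fold of at least 20.70. The peak 2.52 kb into the gene stood at 19.9% there, against 32.1% in the whole list. The peak 42.22 kb upstream stood at 16.9%, against 27.4%. For Trim63 the choice made less difference to the fold rank, as the promoter peak stood at 0.136% of chromosome 4 and 0.169% of the list. By pileup all Fbxo32 members ranked lower on chromosome 15 than in the list. The peak near the gene end had 3.40% of chromosome 15 peaks at or above its pileup, against 2.12% of the list. For the peak 2.52 kb into the gene it was 21.5%, against 12.4%. The median pileup was 23 reads on chromosome 15, against 18 in the list.

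**Figure D3:**
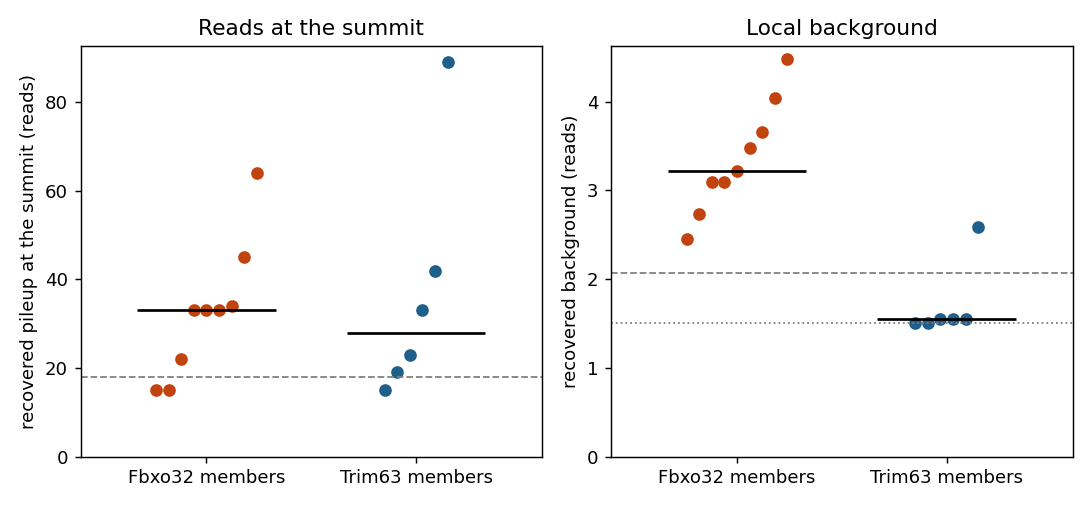
Recovered pileup at the summit (left, reads) and recovered background (right, reads) of the 9 Fbxo32 and 6 Trim63 members in the myotube list; black bars are medians over members, dashed lines the list medians of 18 and 2.07, and the dotted line the floor of 1.51. Pileups overlap between the genes, while 5 of 6 Trim63 backgrounds lie below every Fbxo32 background.

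Both windows held more myotube peaks than most tiles of the genome. The Fbxo32 window of 139.1 kb held 9 summits (95% Poisson interval 4.12 to 17.1), or 6.47 per 100 kb, which is 3.65 times the list mean of 1.77 (interval 1.67 to 6.92). Cut end to end into tiles of that length, the genome had at least 1 summit in 53.3% of 18404 tiles and at least 9 in 7.04%. The Trim63 window of 114.5 kb held 6 summits (2.20 to 13.1), or 5.24 per 100 kb and 2.95 times the mean (1.08 to 6.43). When only peaks whose −log10 q-value reached 10 were counted, the ratios to the list mean were higher, 5.87 at Fbxo32 and 5.95 at Trim63. Of 22360 tiles of that length, 49.7% held at least 1 summit and 11.0% at least 6. The Poisson intervals cover counting error only, and neighbouring peaks are not independent. The windows are centred on genes, and the tiles were not matched to them for gene content.

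Strong peaks were rarer in such tiles. At least 3 summits of fold 20 or more, the number at Trim63, were held by 0.353% of the tiles of its length. At least 1 such summit, the number at Fbxo32, was held by 11.6% of the tiles of its length. The fold of 20 was set with the member values known, so these shares are a description.

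**Figure D4:**
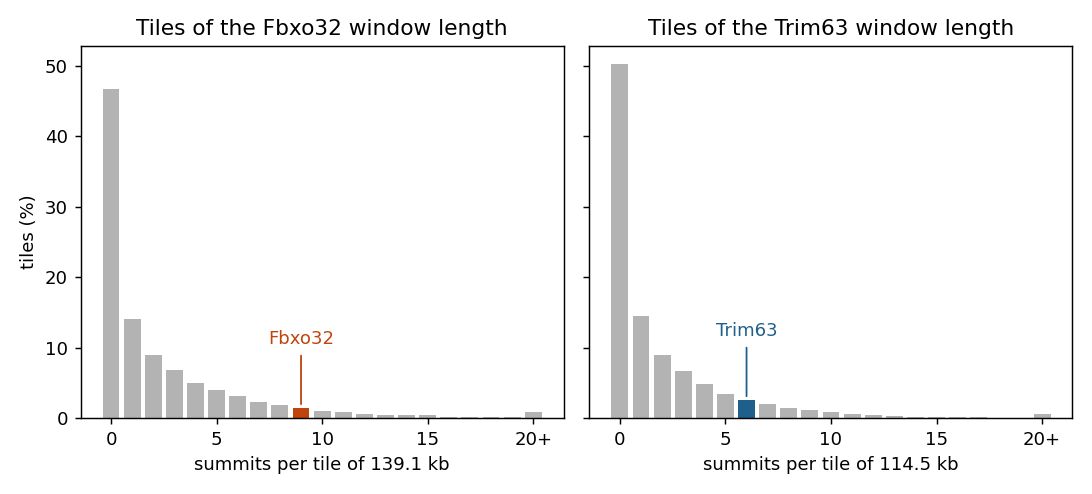
Share of genome tiles (vertical axis, percent) by the number of myotube summits per tile (horizontal axis, 20 or more pooled), for tiles of the Fbxo32 window length (left, 139.1 kb) and the Trim63 window length (right, 114.5 kb). Coloured bars mark the counts at the loci, 9 and 6, and the most common count in both panels is 0.

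Joined at 12 kb, each locus had a cluster of 5 myotube peaks, placed differently along the gene. At Trim63 it spanned 27.15 kb, held 5 of the 6 members and ran from upstream of the promoter to near the gene end. At Fbxo32 it spanned 27.96 kb and lay upstream of the gene, with 4 members and a further peak outside the window, and the other 5 members fell into 3 smaller groups. In the myotube list 31.5% of nuclear peaks lay in clusters of 5 or more. Joined at 5 kb the order turned, with 3 members in the largest cluster at Fbxo32 and 2 at Trim63. The peaks inside Fbxo32 were 8.09 and 26.37 kb apart, against a median gap of 11524 bp between neighbouring summits of the list.

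In myoblasts neither locus had a listed peak. The myoblast list held 501 peaks, and 2.49% of tiles of the Fbxo32 length and 2.06% of tiles of the Trim63 length held at least 1 of them, so an empty window was the usual case. The myoblast peak nearest to the Fbxo32 start lay 201.91 kb downstream (chromosome 15, 57844554 to 57844629), with a fold of 14.27 from 7 reads. The one nearest to the Trim63 start lay 2334.16 kb downstream (chromosome 4, 136205112 to 136205221), with a fold of 25.16 from 12 reads.

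At its usual background the myoblast list held only high folds. That background was 0.44 reads, and the lowest fold listed at it was 13.52, from 6 reads. Of the 15 myotube members, 5 had a fold of at least 13.52, namely 4 at Trim63 and the peak near the end of Fbxo32. The folds of the other 10 lay under the lowest fold listed in myoblasts at that background. That fold is not a limit for the whole myoblast list, which held folds down to 1.56 at other backgrounds. On chromosome 15, 3 of 23 myoblast peaks stood at the background of 0.44, against 20 of 30 on chromosome 4. Folds of the 2 lists rest on unlike backgrounds, so the comparison is rough, most of all for Fbxo32. The lists were called separately and their depths are unknown, so a lower occupancy in myoblasts and a weaker myoblast library cannot be told apart.

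On 3 of the 4 sides the next myotube peak lay at most 59.02 kb from the gene. Downstream of Fbxo32 it lay farther off, 191.88 kb from the start and 152.78 kb past the gene end, with a fold of 5.03 (26 reads). Upstream of Fbxo32 the nearest excluded peak lay 58.02 kb from the start with a fold of 4.83 (20 reads). A peak 75.75 kb upstream (chromosome 15, 58122076 to 58122405) had a fold of 39.18 from 131 reads over 3.34, higher in fold and pileup than any Fbxo32 member. It ranked 346 in the list and lies outside the rule. Next to the Trim63 window the nearest excluded peaks lay 51.83 kb upstream (fold 7.09, 11 reads) and 73.52 kb downstream of the start (fold 8.59, 13 reads).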

How the data were processed

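Each sample had 1 peak list on mm9, and the submitters' processing notes name MACS2 2.1.0. The lists are narrowPeak tables, per the file headers, in which the authors deposited for each peak a fold enrichment (a linear ratio), −log10 p-values and −log10 q-values, a summit position and a score. In 100% of rows the score equalled the −log10 q-value times 10 without its decimals. Fold enrichments are the authors' own and rank peaks within a list. The aligner, control library, handling of duplicates and calling threshold were not given in the sources used here.

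Sequencing depth is unknown, as the lists come without read counts. The pileup at each summit was recovered as the whole number whose ratio to background and Poisson tail give the deposited fold and p-value, within 0.02 on the log10 scale beyond rounding. It was found for 501 of 501 myoblast and 45457 of 45457 myotube peaks. The step was also run on values simulated from its own output, which checks only that it is self-consistent. Coordinates count from 1. Tiles ran end to end over the span of peaks on each chromosome. Motifs were searched in RefSeq promoters of GRCm38.p6, and genes of that assembly were used for names and order only. Strands of the 2 genes are general knowledge.

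The named genes were fixed as Fbxo32 and Trim63, with every member peak where a locus has at most 12, and the genes beside them. The members, lists and settings were chosen with earlier results of these data known. Other FoxO target genes were not analysed here, as mm9 gene positions were not at hand. Alternatives changed the flank, q-value threshold, membership by overlap, peak width, joining distance, promoter size, peak position and promoter length. Software was scipy 1.17.1, pandas 2.3.3 and numpy 2.4.6 under Python 3.11.15.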

Additional observations from a re-analysis of the deposited data

How the results depend on the processing

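Every value rests on 1 library per condition, with unknown depth. Of 54 alternative values, 14 were myoblast counts of 0 that could not change by construction, and 34 of the other 40 stayed within 1.5 times, the Poisson interval or the peak width of the reported value. The counts of myotube summits followed the flank by construction: with 20 kb Fbxo32 held 3, with the gene alone 3 at Fbxo32 and 2 at Trim63 (its promoter summit lies just outside the interval), and with 100 kb Trim63 held 10. Joined at 5 kb, the largest Trim63 cluster held 2 members and the largest Fbxo32 cluster 3. Measured from the midpoint of the peak in place of the summit, the Trim63 promoter peak lay 31 bp downstream of the start instead of 147 bp upstream, as the summit is off centre. Both positions are near the rounding of the start. The myoblast count at both genes was also 0 with a flank of 100 kb and by overlap, the settings that could have raised it. A threshold of 10 on the −log10 q-value left 6 summits at Fbxo32 and 5 at Trim63, with density ratios of 5.87 and 5.95 in place of 3.65 and 2.95, which is within the Poisson intervals. Removal of raised background (over 3 times the floor), chosen after seeing the data, removed no member. Merging of touching rows could change nothing, because no rows touched. Removal of peaks of the smallest width, 122 bp, also removed no member. The myotube counts under these settings are among the 34 that stayed, and they say nothing of robustness. No paired analysis was possible because there is only 1 library at each time.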
